A study of Homo sapiens with 6 samples.

Results

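The NRF2 pathway and detoxification genes comprise 34 genes, matched by symbol among the 58735 genes of the deposited count table: NRF2 itself (gene name NFE2L2), its sensor KEAP1, other factors of the pathway, and NRF2 target genes of glutathione, NADPH, quinone, aldehyde, heme and drug metabolism. All 34 symbols were found once each, and all 34 had enough counts to be among the 14458 genes tested. The genes were followed in 6 libraries of total RNA from A549, an established human lung adenocarcinoma line. The 3 libraries titled OE_GPX3 have the genotype and treatment label OE, and the 3 titled Vector have the label WT for both. GPX3 encodes a secreted, selenium-containing glutathione peroxidase. The labels do not give the expression construct, the time after its introduction, whether the cells were a pool or a clone, or whether the replicates were separate cultures, and p-values therefore measure only how far these libraries scatter, which may be technical.

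NRF2 is a transcription factor that KEAP1 holds in the cytoplasm and hands to a ubiquitin ligase for degradation. Oxidants and electrophiles modify cysteines of KEAP1, NRF2 then accumulates, pairs with a small MAF protein such as MAFG and binds antioxidant response elements in its target genes, where the repressor BACH1 competes for the same sites. A549 cells are known to carry a KEAP1 mutation that impairs this degradation and to express NRF2 target genes without added stress. NRF2 is controlled largely at the level of its protein, which these RNA libraries do not measure.

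The antioxidant response element was looked for as TGACNNNGC, on both strands, in the RefSeq promoter windows (GRCh38.p14, from 250 bases before to 50 after a gene's start site) that the reference table holds for 26 of the 34 genes. It was present in 10 of the 26 genes, 38.5%, against 19.4% of the 10415 tested genes with a window and 16.1% of all 27305 genes with one. Counted by window, it was in 10 of 39 windows of these genes, 25.6%, against 14.5% of the 15195 windows of tested genes and 13.3% of all 35116 windows of the same length. The genes were listed as NRF2 targets, so this share is a description and no separate evidence. The matches, read in the direction of the motif, were TGACTCAGC in ME1 and PIR, TGACTAAGC in GCLM and KEAP1, TGACACGGC in KEAP1 and UGT1A6, TGACGGTGC in ME1, TGACTTTGC in CBR1, TGACTTGGC in EPHX1, TGACTCCGC in IDH1, TGACACAGC in CYP4F11 and TGACAAAGC in MGST1. A match is a run of letters and not a shown binding site, and its absence says only that these letters are not in the window. KEAP1, EPHX1, IDH1, MGST1, CYP4F11 and UGT1A6 also have other windows, which hold no match. The other window of KEAP1 is chr19:10503307-10503606. The windows of KEAP1 (chr19:10502722-10503021, minus strand), ME1 (chr6:83431002-83431301, minus strand) and GCLM (chr1:93909381-93909680, minus strand) are shown because each holds the motif in a gene of a different role, namely the sensor of NRF2, an NADPH-forming enzyme and a subunit of the rate-limiting enzyme of glutathione synthesis. They are written 5′ to 3′ along the gene, and capitals mark the motif, which reads GCNNNGTCA where it lies on the other strand.
KEAP1: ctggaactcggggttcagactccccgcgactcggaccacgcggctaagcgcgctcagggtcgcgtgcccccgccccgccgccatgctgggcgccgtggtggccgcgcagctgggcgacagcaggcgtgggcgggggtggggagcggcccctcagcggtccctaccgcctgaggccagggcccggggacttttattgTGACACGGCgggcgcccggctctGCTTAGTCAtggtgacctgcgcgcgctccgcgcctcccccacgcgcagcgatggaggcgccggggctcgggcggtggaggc
ME1: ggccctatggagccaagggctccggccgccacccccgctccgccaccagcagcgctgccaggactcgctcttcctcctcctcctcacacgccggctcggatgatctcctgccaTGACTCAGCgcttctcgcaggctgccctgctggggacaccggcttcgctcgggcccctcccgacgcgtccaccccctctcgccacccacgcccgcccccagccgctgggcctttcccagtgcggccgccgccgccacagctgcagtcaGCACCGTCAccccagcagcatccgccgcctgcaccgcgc
GCLM: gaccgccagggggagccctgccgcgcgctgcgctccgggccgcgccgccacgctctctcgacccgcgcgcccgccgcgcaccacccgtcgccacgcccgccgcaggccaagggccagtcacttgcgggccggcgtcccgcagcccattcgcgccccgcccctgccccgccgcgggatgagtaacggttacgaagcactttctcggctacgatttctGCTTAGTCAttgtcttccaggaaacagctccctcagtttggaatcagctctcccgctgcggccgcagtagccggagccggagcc
Counted from the start site, the matches begin at bases -54 and -31 in KEAP1, at -137 and 12 in ME1 and at -34 in GCLM.

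Total counts ran from 15831693 to 18751815 per library. GPX3, the gene named in the titles, had 23372, 17470 and 20984 counts in OE_GPX3, against 638, 658 and 648 counts in Vector, so its RNA was higher in every OE_GPX3 library. Levels below are the deposited FPKM, a count divided by gene length and by a constant of the library. The length is the deposited value for each gene, and comparisons of level between genes depend on it. Whether that length fits the transcripts present was not tested. The markers of an epithelial line were present, with 7 of 7 such genes at a mean of at least 1 FPKM and summed levels of 5794 to 7840 FPKM in OE_GPX3 and 5284 to 5820 FPKM in Vector. Of 7 fibroblast markers 0 reached that mean, with summed levels of 0.373 to 0.736 FPKM in OE_GPX3 and 0.518 to 0.605 FPKM in Vector. Of 5 endothelial markers 0 reached it either, KDR had 0 counts in all libraries, and the sums were 0.0645 to 0.158 FPKM in OE_GPX3 and 0.0376 to 0.115 FPKM in Vector. Of 6 immune markers only CD14 did, and the sums were 8.41 to 9.13 FPKM in OE_GPX3 and 6.30 to 8.72 FPKM in Vector. CDKN2A, which A549 cells are known to have lost, had 1 count in 1 OE_GPX3 library and 0 in the others.

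Together the 34 genes took 1.85% to 1.99% of all counts in OE_GPX3, against 1.95% to 2.05% in Vector. The groups overlapped in this share. With each gene taken alike, as log2 scaled counts minus the gene's mean over the 6 libraries, the median of the 34 genes was 0.0033, -0.0209 and -0.0069 in OE_GPX3, against 0.0170, 0.0213 and 0.0266 in Vector. Every OE_GPX3 library lay below every Vector library, by small amounts. The median over all genes tested was 0.0066, -0.0047 and -0.0110 in OE_GPX3, against 0.0198, 0.0110 and 0.0050 in Vector, where the groups overlapped. Whether the medians of the 34 genes differ beyond those of all genes was not tested. These medians were not corrected for GC content. With that correction in edgeR, the median log2 fold change of OE_GPX3 over Vector was -0.0033 for the 34 genes and 0.0033 for all genes tested. Most of the share of counts came from 2 aldehyde dehydrogenases, ALDH1A1 and ALDH3A1, which took 1.12% ± 0.0466 (SD, n = 3) of counts in OE_GPX3 and 1.15% ± 0.0340 (SD, n = 3) in Vector. Levels per length spanned 1988-fold in OE_GPX3 and 2085-fold in Vector, from GSTM3 to ALDH1A1. In each group 7 genes had a mean of at least 100 FPKM and 7 had a mean under 10 FPKM. NFE2L2 and BACH1 stood in the low class in both groups, as the lowest of the regulators. Of the 33 neighbouring pairs in the order of mean levels, 20 in OE_GPX3 and 15 in Vector had overlapping library values, so the order within such pairs is not resolved. GCLC and GCLM, for example, were at 11.4 ± 0.918 and 11.1 ± 1.22 FPKM in OE_GPX3 and 11.8 ± 1.06 and 11.9 ± 1.04 FPKM in Vector (SD, n = 3 each).

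**Figure D1:**
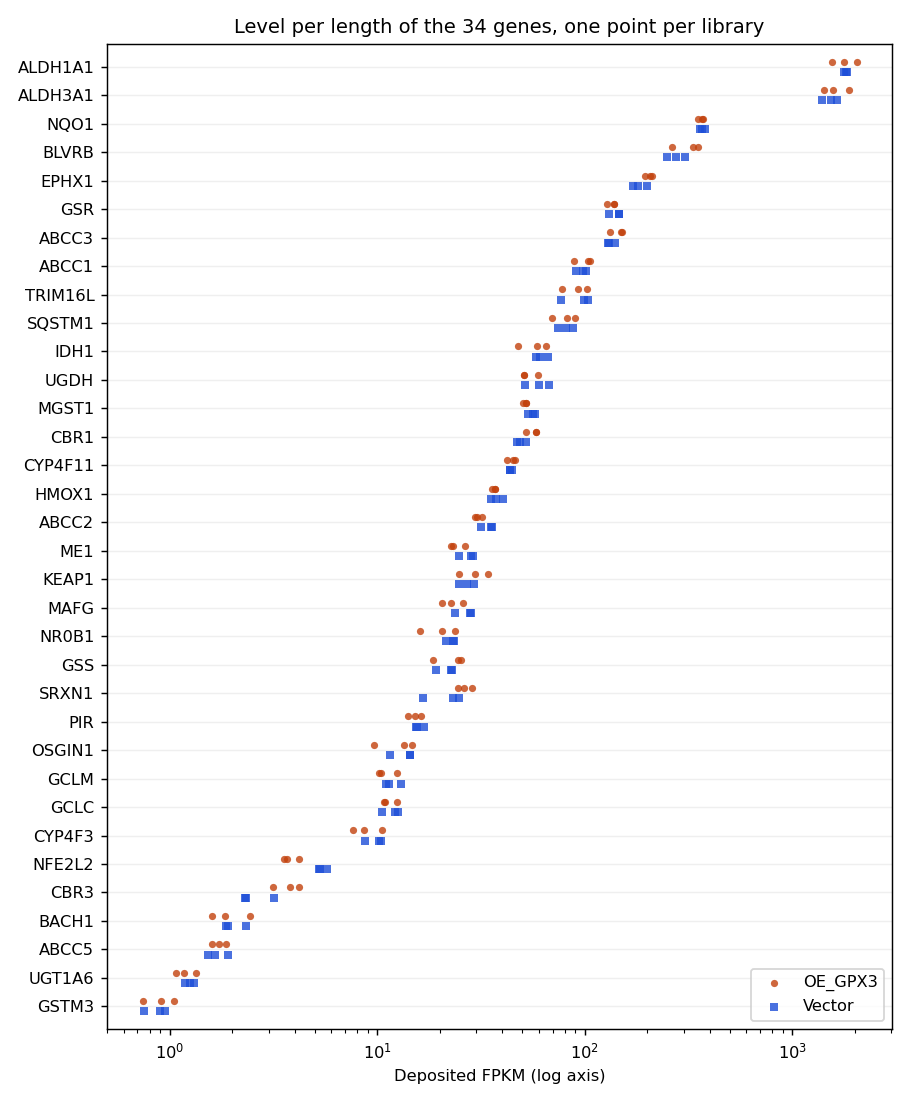
Deposited FPKM on a log axis (horizontal) for each of the 34 genes (vertical, ordered by the mean in Vector), with 1 point per library, circles for the 3 OE_GPX3 libraries drawn above squares for the 3 Vector libraries. ALDH1A1 and ALDH3A1 lie far to the right of all other genes in every library, GSTM3 lies at the low end, and NFE2L2 is among the low genes, with its OE_GPX3 circles all left of its Vector squares.

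Whether the pathway's RNA levels differ with GPX3 overexpression was tested for OE_GPX3 against Vector by edgeR's quasi-likelihood test over all 14458 genes, with Benjamini-Hochberg adjustment and a threshold of 0.05. Of the 34 genes, 0 were called in either direction, where 0.263% of all tested genes were called (38 genes, with 0.0968% higher and 0.166% lower). At an unadjusted p under 0.05 there were 4 of the 34 genes in edgeR, 11.8%, of which SRXN1 and CBR3 were above 0 and NFE2L2 and MAFG below 0, against 14.6% of all genes. Fold changes, given as log2 of OE_GPX3 over Vector, were above 0 for 13 genes and below 0 for 21, and their median was -0.05, against -0.02 over all genes tested. The 95% confidence interval of the change lay within a 1.5-fold change either way for 32 of the 34 genes, and reached past it for NFE2L2 and CBR3. The scaled counts of the groups did not overlap for 2 of the 34 genes, NFE2L2 and MGST1, 5.88%, both lower in OE_GPX3, against 18.5% of all genes in either direction and 9.90% lower. By DESeq2 1 of the 34 genes was called, NFE2L2, where 0.802% of all 14458 genes were. DESeq2 gave no adjusted p to CBR3, UGT1A6 and GSTM3, so these could not be called there. Genes without an adjusted p counted as not called. By limma on the deposited FPKM 0 of the 33 genes at a mean of at least 1 FPKM were called, where 0.0925% of all genes were. After a correction for GC content 0 of the 34 were called in edgeR, 4 had an unadjusted p under 0.05, and 0.0277% of all genes were called.

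**Figure D2:**
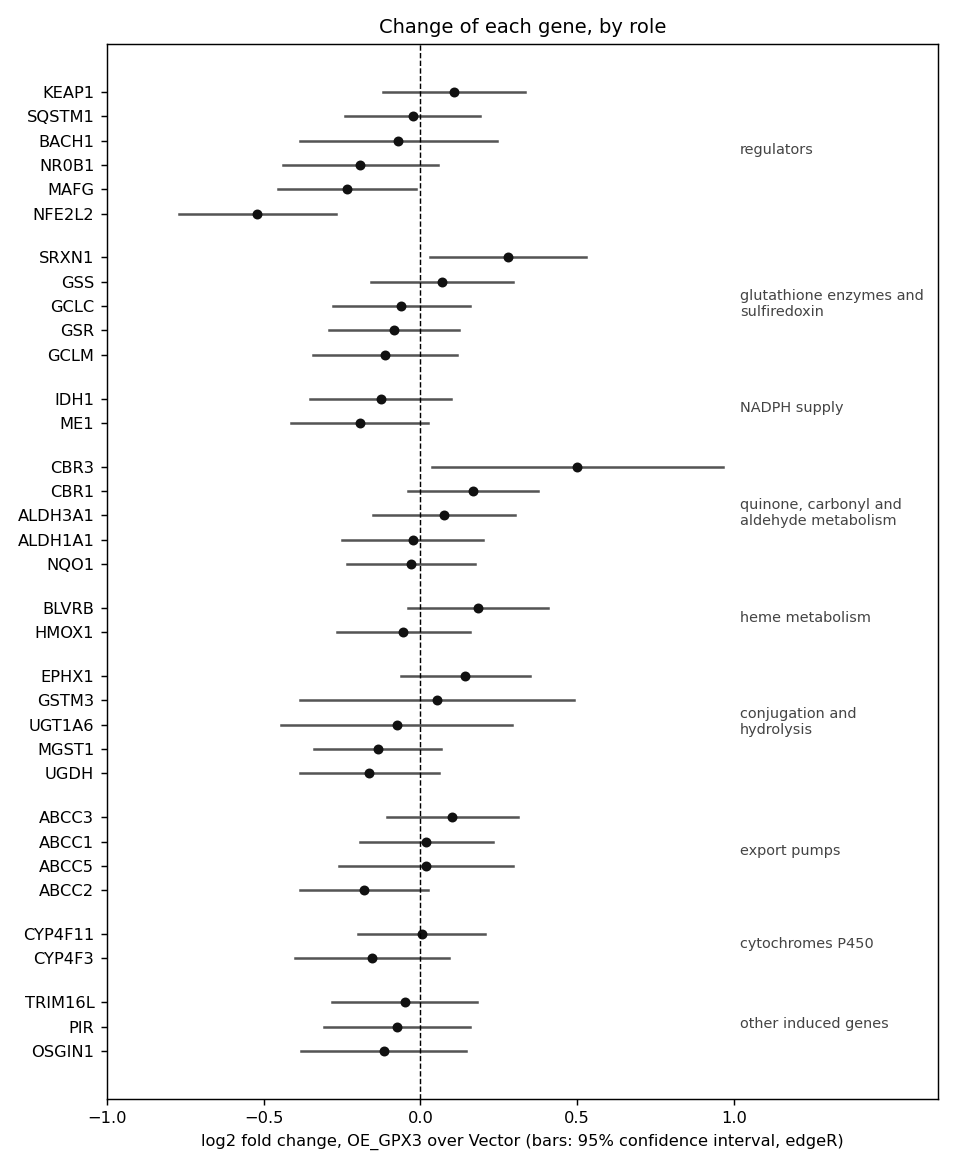
Log2 fold change of OE_GPX3 over Vector in edgeR (points, horizontal axis) with 95% confidence intervals (bars) for the 34 genes, grouped by role. The intervals of 30 genes include 0. NFE2L2 lies farthest to the left at -0.52 and CBR3 farthest to the right at 0.50, with the widest interval.

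Among the regulators, NFE2L2 (ENSG00000116044, chromosome 2, 177227595 to 177392697, minus strand, hg38), which encodes NRF2, had the lowest level relative to Vector. Its counts were 395, 427 and 327 in OE_GPX3, against 564, 674 and 521 in Vector. The deposited FPKM were 3.68, 4.22 and 3.56 in OE_GPX3, against 5.23, 5.73 and 5.30 in Vector. Every OE_GPX3 library lay below every Vector library, and the groups did not overlap. In bulk RNA, fewer cells holding a transcript and less of it per cell cannot be told apart. The means were 3.82 ± 0.353 FPKM in OE_GPX3 and 5.42 ± 0.271 FPKM in Vector (SD, n = 3 each). The log2 fold change was -0.52 with a standard error of 0.12 and a 95% confidence interval of -0.77 to -0.27, and the adjusted p in edgeR was 0.0517, just above the threshold (unadjusted p = 0.000164).

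The call of NFE2L2 therefore depended on the setting. Its direction was the same in all 19 alternatives, with log2 fold changes of -0.59 to -0.42 and adjusted p values of 0.0180 to 0.663. It was called as lower in 7 of them. The alternatives reuse the same libraries, whose NFE2L2 values do not overlap between the groups, so the shared direction is no separate evidence. By DESeq2 the adjusted p was 0.0184. In edgeR it was 0.0375 with upper-quartile scaling, where 0.360% of all genes were called, 0.0278 with total counts alone, where 0.470% were, and 0.0247 with no filter on low counts, where 0.481% were. With the replicate number as a block the edgeR adjusted p was 0.0240, where 1.60% of all genes were called. Without OE_GPX3 replicate 1 it was 0.0180 in edgeR, with 4.47% of all genes called, and without Vector replicate 1 it was 0.0389, with 0.788% called. After the correction for GC content the log2 fold change was -0.43 and the edgeR adjusted p 0.211. Exons of NFE2L2 share 54 bases with AGPS on the opposite strand and 1054 bases with AC019080.1 on the same strand. The sources used here do not say whether reads were counted by strand, so reads over these bases are uncertain; the log2 fold changes of AGPS and AC019080.1 were -0.29 and 0.18 (edgeR adjusted p = 0.271 and 0.851).

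**Figure D3:**
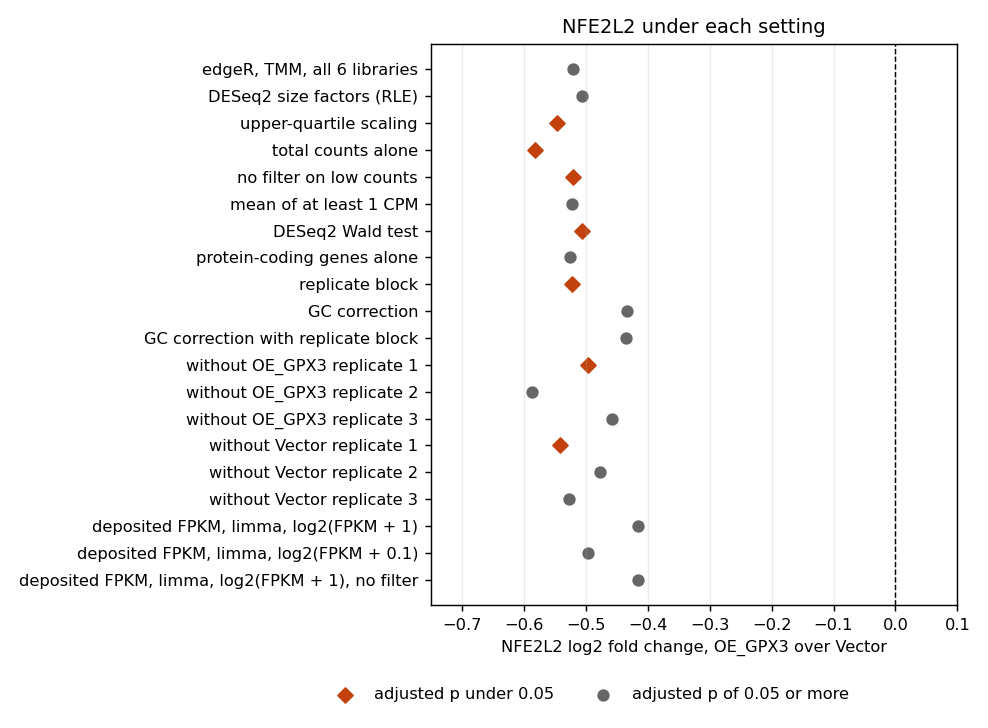
Log2 fold change of NFE2L2, OE_GPX3 over Vector (horizontal axis), in the edgeR fit with all 6 libraries and in each of 19 alternatives (vertical axis), with diamonds where the adjusted p was under 0.05. All 20 points lie left of 0, and 7 of them are diamonds.

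KEAP1, the sensor that directs NRF2 to degradation, had 24.7, 29.8 and 34.1 FPKM in OE_GPX3, against 24.7, 27.2 and 29.4 FPKM in Vector. The groups overlapped, and replicate 3 was the highest library in each. The log2 fold change was 0.11 (95% interval -0.12 to 0.33, edgeR adjusted p = 0.668), and it was -0.03 after the GC correction. Per length, KEAP1 RNA exceeded NFE2L2 RNA by 6.72-, 7.05- and 9.57-fold in OE_GPX3, against 4.71-, 4.74- and 5.56-fold in Vector, without overlap between the groups. This ratio carries the lower NFE2L2 level of OE_GPX3 and is no separate result on KEAP1. The size of the ratio depends on the deposited gene lengths, 3761 bases for KEAP1 and 5979 for NFE2L2. It was not corrected for GC content, which is 60.3% in the longest transcript of KEAP1 and 45.6% in that of NFE2L2. MAFG, the small MAF partner, had 22.6, 20.5 and 25.9 FPKM in OE_GPX3, against 23.8, 28.3 and 28.1 FPKM in Vector. OE_GPX3 replicate 3 lay above Vector replicate 1, so the groups overlapped. The log2 fold change of MAFG was -0.23 (95% interval -0.45 to -0.01, edgeR adjusted p = 0.318). MAFG exons share 105 bases with SIRT7 on the same strand, whose log2 fold change was -0.03.

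BACH1, the repressor that competes for antioxidant response elements, had 1.85, 2.44 and 1.60 FPKM in OE_GPX3, against 2.34, 1.92 and 1.87 FPKM in Vector, with both the highest and the lowest library in OE_GPX3. Its log2 fold change was -0.07 (95% interval -0.38 to 0.24, edgeR adjusted p = 0.856), and the sign turned after the GC correction (0.10), without OE_GPX3 replicate 3 (0.069) and without Vector replicate 1 (0.044). SQSTM1, the autophagy receptor p62 that sequesters KEAP1, was at 80.6 ± 9.99 FPKM in OE_GPX3 and 81.1 ± 6.87 FPKM in Vector (SD, n = 3 each), which is a log2 change of -0.03 (edgeR adjusted p = 0.928). Its exons share 1582 bases with MRNIP and 105 bases with MGAT4B, both on the opposite strand. NR0B1, a nuclear receptor known as an NRF2 target in KEAP1-mutant lung cancer cells, was at 20.1 ± 3.89 FPKM in OE_GPX3 and 22.7 ± 1.15 FPKM in Vector (SD, n = 3 each), which is a log2 change of -0.19 (edgeR adjusted p = 0.463). OE_GPX3 replicate 1 was the lowest library for NR0B1.

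**Figure D4:**
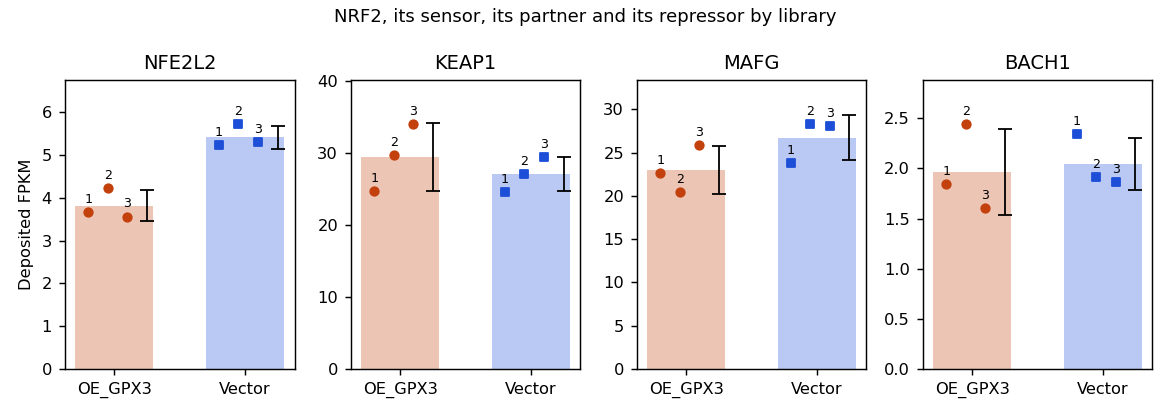
Deposited FPKM (vertical axes from 0, a scale for each gene) of NFE2L2, KEAP1, MAFG and BACH1 in OE_GPX3 (left) and Vector (right), with library points numbered by replicate, bars for the mean and error bars for the SD of 3 libraries. The groups separate for NFE2L2, at 3.56 to 4.22 FPKM in OE_GPX3 and 5.23 to 5.73 FPKM in Vector, and overlap for the other genes.

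The 4 enzymes that make or recycle glutathione (GCLC, GCLM, GSS and GSR) and sulfiredoxin showed no call. Of the 4, 1 had a log2 fold change above 0 and 3 below 0. SRXN1, sulfiredoxin, which restores overoxidised peroxiredoxins, had 24.4, 26.1 and 28.7 FPKM in OE_GPX3, against 23.1, 16.7 and 24.9 FPKM in Vector. The low value of Vector replicate 2 set it apart from the other libraries, and OE_GPX3 replicate 1 lay below Vector replicate 3. The log2 fold change of SRXN1 was 0.28 (95% interval 0.03 to 0.53, edgeR adjusted p = 0.294), and without Vector replicate 2 it was 0.12. SRXN1 shares 2292 exon bases of its 2698 with AL121758.1 on the same strand, which had 48 counts over all libraries against 6678 for SRXN1 and a log2 fold change of -0.77 (edgeR adjusted p = 0.543), so the level of SRXN1 is uncertain. GSR, which regenerates reduced glutathione with NADPH, had 138, 128 and 138 FPKM in OE_GPX3, against 146, 147 and 130.2 FPKM in Vector, with overlap and a log2 fold change of -0.08 (edgeR adjusted p = 0.721). GCLC and GCLM, the catalytic and modifier subunits of glutamate-cysteine ligase, had log2 fold changes of -0.06 and -0.11 (edgeR adjusted p = 0.819 and 0.653), and both turned positive after the GC correction, at 0.05 and 0.08. Their ratio per length was 1.03 ± 0.0296 in OE_GPX3 and 0.994 ± 0.0897 in Vector (SD, n = 3 each). The size of this ratio depends on the deposited gene lengths, 8646 bases for GCLC and 5420 for GCLM. GSS, which adds glycine in the last step of synthesis, was at 22.9 ± 3.72 FPKM in OE_GPX3 and 21.6 ± 2.06 FPKM in Vector (SD, n = 3 each), which is a log2 change of 0.07 (edgeR adjusted p = 0.800).

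Both NADPH-forming enzymes had values below 0 without a call. ME1, malic enzyme, had 26.4, 22.8 and 23.2 FPKM in OE_GPX3, against 28.3, 28.9 and 24.8 FPKM in Vector, and OE_GPX3 replicate 1 lay above Vector replicate 3. Its log2 fold change was -0.19 (95% interval -0.41 to 0.02, edgeR adjusted p = 0.402), and it was -0.02 after the GC correction, beside a GC content of 39.5% in its longest transcript. IDH1, cytosolic isocitrate dehydrogenase, was at 57.3 ± 9.11 FPKM in OE_GPX3 and 61.9 ± 4.23 FPKM in Vector (SD, n = 3 each), which is a log2 change of -0.13 (edgeR adjusted p = 0.603).

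Enzymes of aldehyde, quinone and carbonyl metabolism included the most abundant RNAs of the set. ALDH1A1, a cytosolic retinaldehyde dehydrogenase, had 2044, 1775 and 1555 FPKM in OE_GPX3, against 1829, 1815 and 1768 FPKM in Vector. Its mean ranked 25 among the 24008 genes with an FPKM above 0 in OE_GPX3 and 23 among 24754 in Vector. The OE_GPX3 libraries lay on both sides of the closely spaced Vector libraries, and the log2 fold change was -0.03 (95% interval -0.25 to 0.20, edgeR adjusted p = 0.931). ALDH3A1, which oxidises medium-chain and aromatic aldehydes, had 1426, 1568 and 1878 FPKM in OE_GPX3, against 1387, 1538 and 1646 FPKM in Vector, and ranked 27 in both groups. Its groups overlapped, at a log2 fold change of 0.08 (95% interval -0.15 to 0.30, edgeR adjusted p = 0.777). After the GC correction the signs of this pair turned, to 0.11 for ALDH1A1, whose longest transcript has a GC content of 41.9%, and to -0.05 for ALDH3A1, with 59.5%. NQO1, the NADPH quinone reductase that is the most used reporter of NRF2 activity, had 352, 373 and 367 FPKM in OE_GPX3, against 358, 381 and 365 FPKM in Vector. All 6 values lay close together, and the log2 fold change was -0.03 (95% interval -0.24 to 0.17, edgeR adjusted p = 0.904).

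The carbonyl reductases CBR1 and CBR3, neighbours on chromosome 21, differed in level. CBR3 had 3.14, 4.20 and 3.79 FPKM in OE_GPX3, against 2.33, 2.30 and 3.17 FPKM in Vector, from 49 to 83 counts per library. OE_GPX3 replicate 1 and Vector replicate 3 nearly coincided, so the groups overlapped. The log2 fold change of CBR3 was 0.50 (95% interval 0.04 to 0.96, edgeR adjusted p = 0.312), positive in all 19 alternatives at 0.38 to 0.67. The antisense gene CBR3-AS1 shares 493 exon bases with CBR3 and had 61 counts over all libraries, against 380 for CBR3. CBR1 was at 56.3 ± 3.64 FPKM in OE_GPX3 and 49.5 ± 2.55 FPKM in Vector (SD, n = 3 each), which is a log2 change of 0.17 (edgeR adjusted p = 0.445). CBR1 exceeded CBR3 per length by 15.3-fold in OE_GPX3 and 19.4-fold in Vector.

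In heme breakdown, HMOX1, the stress-induced heme oxygenase, was at 36.6 ± 0.781 FPKM in OE_GPX3 and 37.6 ± 2.44 FPKM in Vector (SD, n = 3 each), which is a log2 change of -0.05 (95% interval -0.27 to 0.16, edgeR adjusted p = 0.835). BLVRB, a biliverdin and flavin reductase, had 263, 352 and 332 FPKM in OE_GPX3, against 248, 274 and 303 FPKM in Vector. OE_GPX3 replicate 1 lay within the range of the Vector libraries, and the log2 fold change was 0.18 (95% interval -0.04 to 0.41, edgeR adjusted p = 0.434).

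Conjugating and hydrolysing enzymes were represented by 5 genes. EPHX1, the microsomal epoxide hydrolase, had 196, 206 and 211 FPKM in OE_GPX3, against 181, 170.3 and 198 FPKM in Vector, with OE_GPX3 replicate 1 below Vector replicate 3. The log2 fold change was 0.14 (95% interval -0.06 to 0.35, edgeR adjusted p = 0.521). MGST1, a membrane-bound glutathione transferase, had 52.0, 52.1 and 50.2 FPKM in OE_GPX3, against 57.9, 56.4 and 53.6 FPKM in Vector. The groups did not overlap, but the difference was small, with a log2 fold change of -0.14 (95% interval -0.34 to 0.07, edgeR adjusted p = 0.529), and it was 0.0031 after the GC correction. UGDH, which makes the glucuronic acid donor, was at 53.9 ± 5.05 FPKM in OE_GPX3 and 59.6 ± 7.91 FPKM in Vector (SD, n = 3 each), which is a log2 change of -0.16 (edgeR adjusted p = 0.491). GSTM3, a mu-class glutathione transferase, had the lowest mean FPKM of the set, at 0.901 in OE_GPX3 and 0.865 in Vector. It had 54 to 90 counts in OE_GPX3 and 70 to 77 counts in Vector, where CBR3 had fewer, at 49, 53 and 61. UGT1A6, a UDP-glucuronosyltransferase of phenols, had 85 to 125 counts in OE_GPX3 and 101 to 133 counts in Vector. It shares its last exons with the other UGT1A genes, among them 1692 exon bases with UGT1A7, which had 4252 counts over all libraries against 664 for UGT1A6, so its value is uncertain. The log2 fold changes of GSTM3 and UGT1A6 were 0.05 and -0.08 (edgeR adjusted p = 0.926 and 0.873).

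The multidrug resistance proteins, pumps that export glutathione conjugates and drugs, differed widely in level. ABCC3 had 150.1, 133 and 151 FPKM in OE_GPX3, against 129, 132 and 139.9 FPKM in Vector, a log2 fold change of 0.10 (edgeR adjusted p = 0.657). ABCC1 had 106, 88.4 and 103 FPKM in OE_GPX3, against 97.8, 91.1 and 102 FPKM in Vector, a log2 fold change of 0.02 (edgeR adjusted p = 0.946). Groups overlapped for both, and OE_GPX3 replicate 2 had the lowest OE_GPX3 value for each. ABCC2 was at 30.6 ± 1.24 FPKM in OE_GPX3 and 34.3 ± 2.13 FPKM in Vector, and ABCC5 at 1.73 ± 0.140 FPKM in OE_GPX3 and 1.69 ± 0.192 FPKM in Vector (SD, n = 3 each). Their log2 fold changes were -0.18 and 0.02 (edgeR adjusted p = 0.407 and 0.966). The signs of ABCC1 and ABCC5 turned with upper-quartile scaling, to -0.0071 and -0.0100, and with total counts alone, to -0.038 and -0.043. These scalings lowered the median of all genes as well, to -0.042 and -0.076 from -0.016. With a library left out the sign also turned, in 2 fits for ABCC1 and 3 for ABCC5. The cause of these turns was not tested.

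The cytochromes P450 CYP4F11 and CYP4F3, fatty acid hydroxylases, were at 44.5 ± 2.22 and 8.92 ± 1.46 FPKM in OE_GPX3 and at 43.9 ± 0.655 and 9.81 ± 0.932 FPKM in Vector (SD, n = 3 each). Their log2 fold changes were 0.0040 and -0.15 (edgeR adjusted p = 0.990 and 0.558). They belong to a family of close copies, so reads can be shared with CYP4F2 and CYP4F12. The same holds for TRIM16L, a copy of the NRF2 target TRIM16, which was at 91.0 ± 12.4 FPKM in OE_GPX3 and 93.2 ± 14.6 FPKM in Vector (SD, n = 3 each). OSGIN1, an oxidative stress-induced growth inhibitor, was at 12.6 ± 2.60 FPKM in OE_GPX3 and 13.4 ± 1.62 FPKM in Vector, and PIR, the iron-binding protein pirin, at 15.2 ± 1.08 FPKM in OE_GPX3 and 15.9 ± 0.741 FPKM in Vector (SD, n = 3 each). The log2 fold changes of TRIM16L, OSGIN1 and PIR were -0.05, -0.12 and -0.07 (edgeR adjusted p = 0.862, 0.692 and 0.789). The 10 genes with the response element motif in a promoter window had log2 fold changes from -0.19 in ME1 to 0.17 in CBR1. Of these, 4 were above 0 and 6 below 0, and 0 of the 10 had an unadjusted p under 0.05 in edgeR, against 14.6% of all genes.

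**Figure D5:**
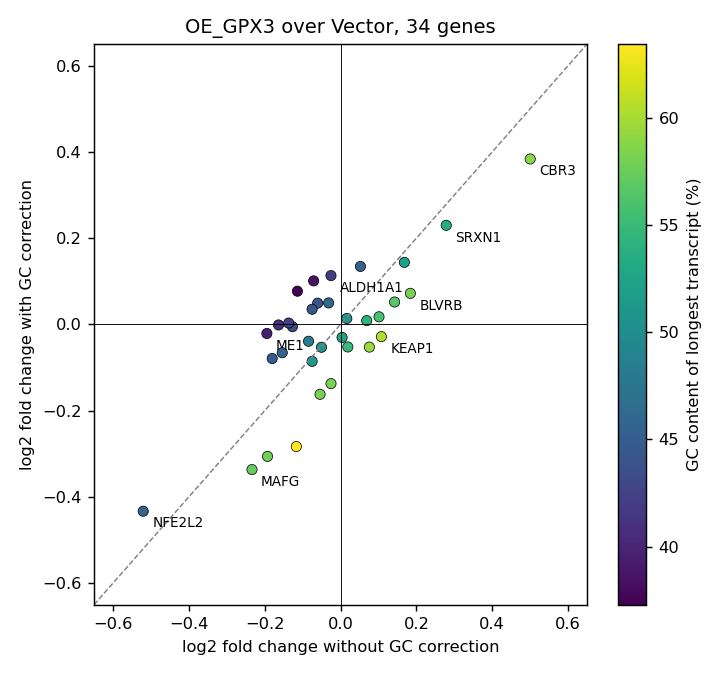
Log2 fold change of OE_GPX3 over Vector with a correction for GC content (vertical axis) against the value without it (horizontal axis) for the 34 genes, coloured by the GC content of the longest transcript in percent, with the line of equal values dashed. Genes of low GC content lie above the line and genes of high GC content below it, and NFE2L2 is the lowest point on both axes, at -0.43 with and -0.52 without the correction.

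GC content of the longest transcript ran from 37.3% in GCLM to 63.4% in OSGIN1, with a median of 51.2%. With the correction, 11 of the 34 genes changed sign, MGST1 from the value farthest from 0, at -0.14. The corrected values were -0.34 for MAFG, -0.31 for NR0B1, -0.28 for OSGIN1, 0.23 for SRXN1 and 0.38 for CBR3, with edgeR adjusted p values of 0.245, 0.357, 0.446, 0.548 and 0.582.

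Genes around these were counted in 4 lists, which leave out the 34. Of all genes tested, 0.263% were called in edgeR, so 0 called is near that share in lists of this size. Of 18 tested regulators of NRF2, 0 were called in edgeR and 1 had an unadjusted p under 0.05 (5.56%, against 14.6% of all genes). PALB2, a KEAP1-binding protein of DNA repair, had a log2 fold change of -0.42 (edgeR adjusted p = 0.283), the ubiquitin ligase subunit RBX1 had 0.23 (adjusted p = 0.387) and the acetyltransferase CREBBP, a coactivator of NRF2, had -0.22 (adjusted p = 0.395). The median of this list was -0.08. CUL3, the scaffold of the ligase that KEAP1 recruits, had a log2 fold change of -0.09.

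Of 28 further NRF2 target genes, 0 were called in edgeR. An unadjusted p under 0.05 was found for 5 (17.9%, against 14.6% of all genes), 2 above and 3 below 0. The median of this list was 0.05. The cystine transporter gene SLC7A11 had 5.86, 7.03 and 6.43 FPKM in OE_GPX3, against 9.17, 8.44 and 8.08 FPKM in Vector, without overlap, and a log2 fold change of -0.43 (edgeR adjusted p = 0.0691). SLC7A11 is also a target of the stress factor ATF4. The carboxylesterase CES1 had 241, 221 and 249.7 FPKM in OE_GPX3, against 181, 168 and 198 FPKM in Vector, likewise without overlap, and a log2 fold change of 0.36 (edgeR adjusted p = 0.118). Thioredoxin reductase TXNRD1 had 161, 167 and 148 FPKM in OE_GPX3, against 183, 196 and 181 FPKM in Vector, and a log2 fold change of -0.25 (edgeR adjusted p = 0.272). The groups did not overlap for 8 of the 28 genes, 28.6% against 18.5% of all genes.

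Of 16 other genes of glutathione turnover, 0 were called in edgeR and 3 had an unadjusted p under 0.05 (18.8%, against 14.6% of all genes). The median of this list was 0.02. The gamma-glutamyltransferase GGT1, which belongs to a family of close copies, had a log2 fold change of 0.31, the glutathione-degrading enzyme CHAC2 had -0.39 and the mitochondrial glutathione carrier SLC25A39 had 0.21 (edgeR adjusted p = 0.182, 0.308 and 0.334). Of 39 tested detoxification enzymes outside the set, 0 were called in edgeR and 4 had an unadjusted p under 0.05 (10.3%, against 14.6% of all genes). The median of this list was 0.06. GSTCD and CBR4 had log2 fold changes of -0.45 and -0.43 and the glutathione transferase MGST3 had 0.26 (edgeR adjusted p = 0.197, 0.231 and 0.248). Exons of GSTCD overlap INTS12 and those of CBR4 overlap PALLD on the opposite strand.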

How the data were processed

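RNA of 6 A549 libraries was compared, 3 OE_GPX3 and 3 Vector, grouped by title. The authors deposited whole-number counts per gene, not normalized as far as the values show, and FPKM values. The build was hg38, per the submitters' processing notes; the sources used here name no aligner, counter or strand setting. The labels describe a small RNA library, whereas the counted genes are mostly messenger RNAs. The deposited FPKM equalled the count divided by gene length and by 1 constant for each library, within a relative deviation of 5.11e-15. All 58735 genes have the same position in GENCODE 29.

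Genes with low counts were removed with filterByExpr (minimum count 10, minimum total 15), leaving 14458. Counts were scaled by TMM and tested with edgeR 4.0.16 (quasi-likelihood, robust, two-sided; R 4.3.3) and p-values were adjusted by Benjamini-Hochberg over the whole table. Alternatives used DESeq2 1.42.0, limma 3.58.1 on log2(FPKM + 1) or log2(FPKM + 0.1), which understates changes of low genes, other scalings and filters, a replicate block, a GC correction (a lowess fit per library on the GC content of each gene's longest transcript) and leaving out each library. Overlap between groups was judged on scaled counts for numbers of genes and on FPKM where FPKM are printed.

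The 34 genes, the 4 further lists and the tests were chosen with earlier results of these data known. Every library's value is given for NFE2L2, KEAP1, MAFG and BACH1, the 8 genes of highest FPKM and the 5 of smallest p; the other values printed per library, and CUL3, were added after the values were seen. From each further list the 3 genes of smallest p are named; ABCC4 is in 2 of the lists. On counts simulated for these libraries (14296 genes), calls reached 51 of 67 genes set to differ 1.5-fold (76.1%), all 67 at 2-fold and all 66 at 4-fold, and 12 of 196 calls were false. The data gave 38 calls, and fewer calls make the Benjamini-Hochberg cutoff stricter. The 76.1% can therefore overstate the share reached for the 34 genes. The biological coefficient of variation was 0.110. No 2 libraries of a group agreed within sampling noise (chi-square per gene 8.88 to 25.4).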

Additional observations from a re-analysis of the deposited data

How the results depend on the processing

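Over 19 alternatives, 644 fold changes of the 34 genes were recomputed. Of these, 584 kept their direction and their side of the threshold, 7 became called (all NFE2L2), 0 lost a call and 53 changed sign, 30 of them with all libraries; 15 genes never changed sign. The cause of these changes was not tested. The number of genes called over the whole table was 38, and it became 68 with total counts alone, 129 with no filter on low counts, 116 by DESeq2, 231 with the replicate block, 4 with the GC correction, and 10, 11 and 1 by limma on log2(FPKM + 1), on log2(FPKM + 0.1) and on log2(FPKM + 1) without a filter. Leaving out a library gave 1 (without OE_GPX3 replicate 2) to 657 (without OE_GPX3 replicate 1). The number of the 34 called was 1 by DESeq2, with the replicate block, with no filter and under both upper-quartile and total-count scaling, and 0 to 1 with a library left out. Their median log2 fold change of -0.05 became -0.037 with RLE scaling, -0.078 under upper-quartile and -0.113 under total-count scaling, -0.0371 by DESeq2, -0.0033 with the GC correction, -0.0054 with it and the replicate block, -0.035, -0.0372 and -0.033 by limma in the order above, and -0.054 to -0.013 with a library left out. The median of all genes tested moved with the scaling, at -0.016 by TMM, -0.0010 with RLE, -0.042 under upper-quartile and -0.076 under total-count scaling.

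With the GC correction alone, and then with the replicate block added, the sign turned for ABCC1 (-0.0523 and -0.0561), ALDH1A1 (0.113 and 0.110), ALDH3A1 (-0.0526 and -0.0554), BACH1 (0.101 and 0.0960), CYP4F11 (-0.0303 and -0.0313), GCLC (0.0492 and 0.0490), GCLM (0.0769 and 0.0701), KEAP1 (-0.0284 and -0.0325), MGST1 (0.0031 and 0.0027), NQO1 (0.0498 and 0.0487) and UGT1A6 (0.0351 and 0.0341). CYP4F11 was at -0.00059 among protein-coding genes alone. With total counts alone ABCC1, ABCC5, CYP4F11 and GSTM3 were at -0.0379, -0.0428, -0.0547 and -0.0051, and with upper-quartile scaling ABCC1, ABCC5 and CYP4F11 were at -0.0071, -0.0100 and -0.0221. With a library left out the range crossed 0 for BACH1 (-0.247 to 0.0686), GSS (-0.0048 to 0.194), IDH1 (-0.238 to 0.0057), HMOX1 (-0.0950 to 0.0063), ALDH3A1 (-0.0254 to 0.158), ALDH1A1 (-0.136 to 0.0806), ABCC1 (-0.0357 to 0.107), ABCC5 (-0.0514 to 0.112), OSGIN1 (-0.223 to 0.0397), UGT1A6 (-0.173 to 0.0113), TRIM16L (-0.170 to 0.0479), CYP4F11 (-0.0304 to 0.0550), GSTM3 (-0.0819 to 0.185) and SQSTM1 (-0.0909 to 0.0647).

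Same-numbered libraries deviated together for replicates 1 and 3 (correlation 0.192 and 0.114 over genes) but hardly for replicate 2 (0.0104). Libraries of unlike number had correlations of -0.151 to 0.0493. Whether the numbers pair the libraries is therefore not settled. The fit without a block was kept as the main one, and 231 genes were called with the block against 38 without it. Depth limits CBR3, GSTM3 and UGT1A6 most, at 49 to 133 counts per library.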
